A study of Mus musculus with 18 samples.

Results

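The genes described here carry glucose from uptake to pyruvate and lactate, with the branches that feed from the same route, and they were followed in the testes of gonadotrophin-deficient mice given follicle-stimulating hormone (FSH). A list of 37 genes was looked up by single gene symbol in the annotation of the array, and 34 of them were found among 12394 annotated genes. Of these, 33 were read from the probe set with the highest mean over all arrays, and Gapdh was read from 3 control probe sets of the array, the ones that carry its symbol. Gpi1, Eno1 and G6pdx were not analysed here.

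Whole testes came from 18 hypogonadal (hpg) males, 10 weeks old, a line that lacks gonadotrophin-releasing hormone, so that all mice, the controls included, make very little FSH or luteinising hormone of their own. Recombinant FSH was given under the skin at 8 IU per injection every 12 h, for 12 h (4 mice), 24 h (3 mice) or 72 h (4 mice), and 7 hpg males of that age, left untreated, were the controls. Each mouse gave 1 Affymetrix MOE430A array, so the spread between arrays includes that between animals. The design asks which testicular transcripts differ after each length of FSH exposure. The hpg testis is a limited model, because germ cell development mostly stops in meiosis and Leydig cells have developed without normal levels of luteinising hormone.

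In the seminiferous tubule, Sertoli cells take up glucose, break it down by glycolysis and export lactate, which spermatocytes and spermatids use as fuel behind the blood-testis barrier. FSH acts on Sertoli cells, the cells of the testis that carry its receptor. Pyruvate that is not turned into lactate enters mitochondria through the pyruvate dehydrogenase complex, which pyruvate dehydrogenase kinases switch off, while the pentose phosphate branch makes NADPH and ribose from glucose 6-phosphate.

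All values are log2 expression values per probe set, as deposited by the authors, and differences between them are log2 fold changes. The arrays formed 2 technical sets. The bacterial Dap spike-in read 7.95 to 8.97 on the 12 arrays of the 12 h mice, the 72 h mice and controls 4 to 7, against 2.77 to 3.19 on the 6 arrays of the 24 h mice and controls 1 to 3. Each time was therefore compared with the controls of its own set, 12 h and 72 h with controls 4 to 7 and 24 h with controls 1 to 3. A gene was called when limma's adjusted p, over 22626 probe sets, was below 0.05. In whole testis, fewer cells of a type and less RNA per cell cannot be told apart.

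One mouse stood apart. In control 6 the spermatid genes Prm1, Prm2, Tnp1 and Tnp2 read 12.04, 12.30, 11.65 and 12.06, whereas the highest values of the other 17 arrays were 3.85, 3.40, 4.49 and 2.89. Gapdhs, the spermatid form of glyceraldehyde phosphate dehydrogenase, read 8.07 there and at most 2.43 elsewhere. Calls that rest on controls 4 to 7 are therefore given with and without control 6. Spermatocyte and spermatid genes (12 of 12 listed) spanned 5.31 to 6.06, 5.47 to 6.44 and 5.78 to 6.17 at 12, 24 and 72 h. They spanned 5.11 to 10.59 in controls 4 to 7 and 5.37 to 6.29 in controls 1 to 3. Their median log2 fold change was -1.35, 0.29 and -1.33 at the 3 times, and none was called. Sertoli markers were present in all arrays (Clu 13.72 to 14.79, Sox9 7.86 to 9.72), except that Amh lay at the floor of the array (1.54 to 1.60). Averaged over their measured markers, Sertoli genes (13 of 15 listed) spanned 7.89 to 8.52 at 12 h, 8.25 to 8.70 at 24 h and 8.94 to 9.08 at 72 h, against 8.11 to 8.67 in controls 4 to 7 and 8.11 to 8.54 in controls 1 to 3. Of these 13, 2 were called higher and 2 lower at 12 h, 3 higher and 3 lower at 24 h, and 4 higher and 1 lower at 72 h. Their median log2 fold change was -0.08, -0.20 and 0.01 at the 3 times. At 72 h the genes ranged from -1.11 to 4.27, so the higher average there was not shared by the typical marker. Inha, the inhibin alpha subunit, was higher at all 3 times (1.87, 1.75 and 1.94), and Fshr, the FSH receptor, was lower at all 3 (-1.10, -1.24 and -1.11). Leydig genes (6 of 10 listed) spanned 7.64 to 8.02 at 12 h, 7.39 to 8.15 at 24 h and 6.61 to 7.24 at 72 h, against 6.06 to 7.07 in controls 4 to 7 and 6.04 to 6.20 in controls 1 to 3. The part of these shifts in the results below was not tested. Macrophage genes (9 of 10) spanned 5.77 to 6.08, 5.54 to 5.99 and 6.39 to 6.72 at the 3 times, against 5.79 to 6.39 and 5.51 to 5.84 in the same controls. Peritubular myoid genes (7 of 7) spanned 7.26 to 7.86, 7.05 to 7.20 and 7.10 to 7.42, against 6.80 to 7.21 and 6.65 to 7.01. Of the red blood cell (4 of 7) and endothelial (7 of 7) genes none was called, with an unadjusted p below 0.05 for 0 and 1 results, gene by time, and Hba-a1 (2.39 to 2.51) and Tie1 (2.35 to 2.60) stayed near the floor on all 18 arrays. Of the skeletal muscle genes (11 of 11), Tnni2 was called higher at 24 h (0.35) and Myh1 at 72 h (2.13), while Ckm stayed at 2.20 to 3.16. Fat genes (4 of 7) spanned 2.83 to 3.10, 3.02 to 3.48 and 2.94 to 3.28 at the 3 times, against 2.47 to 2.77 in controls 4 to 7 and 2.77 to 4.31 in controls 1 to 3, with Cidec called higher at 24 h (0.49).

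After FSH, a small group of genes along the route was higher and a smaller one lower. Pgk1, which makes adenosine triphosphate in lower glycolysis, was higher at all 3 times. The aldolase Aldoa, the glycolytic activator Pfkfb3 and the lactate exporter Slc16a3 were higher at 2 times, and Pdk4, a brake on pyruvate dehydrogenase, was lower at 2 times. On the brightest probe set of each gene, Hk2 and Pgd at 72 h and Tkt and Me1 at 12 h were higher at 1 time, and Slc16a1 and Pdk1 at 24 h and Slc2a8 at 72 h were lower at 1 time. In all, 12 of 33 genes were called at 1 or more times, 8 higher and 4 lower, and 21 were called at none. The share of all genes called at 1 or more times was not computed, so this count has no background beside it. Shares at each time are given next.

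At 12 h, 5 of the 33 genes were higher and 1 was lower, beside 3.52% and 2.76% of the 12393 genes with a tested probe set. At 24 h, 3 were higher and 2 lower, beside 6.38% and 8.45% of those genes. At 72 h, 5 were higher and 2 lower, beside 4.23% and 3.03%. In both directions together the called share was 18.2%, 15.2% and 21.2% of the 33, beside 6.28%, 14.8% and 7.26% of all genes, so the share at 24 h was near the background. Among genes whose mean over 18 arrays was at least 4, it was 17.2%, 17.2% and 20.7% of 29 members, beside 9.73%, 19.8% and 11.4% of 7372 genes. The median log2 fold change of the 33 was -0.08, 0.11 and 0.16 at the 3 times, and that of all genes -0.00, 0.04 and 0.01. Without control 6, 12 h had 3 calls higher and 1 lower, 24 h had 3 and 2, and 72 h had 4 and 1, or 12.1%, 15.2% and 15.2% of the 33, beside 5.29%, 15.1% and 6.88% of all genes in that fit. An F test over all 3 times called 11 of the 33 (9 without control 6), beside 16.7% of all genes.

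**Figure D1:**
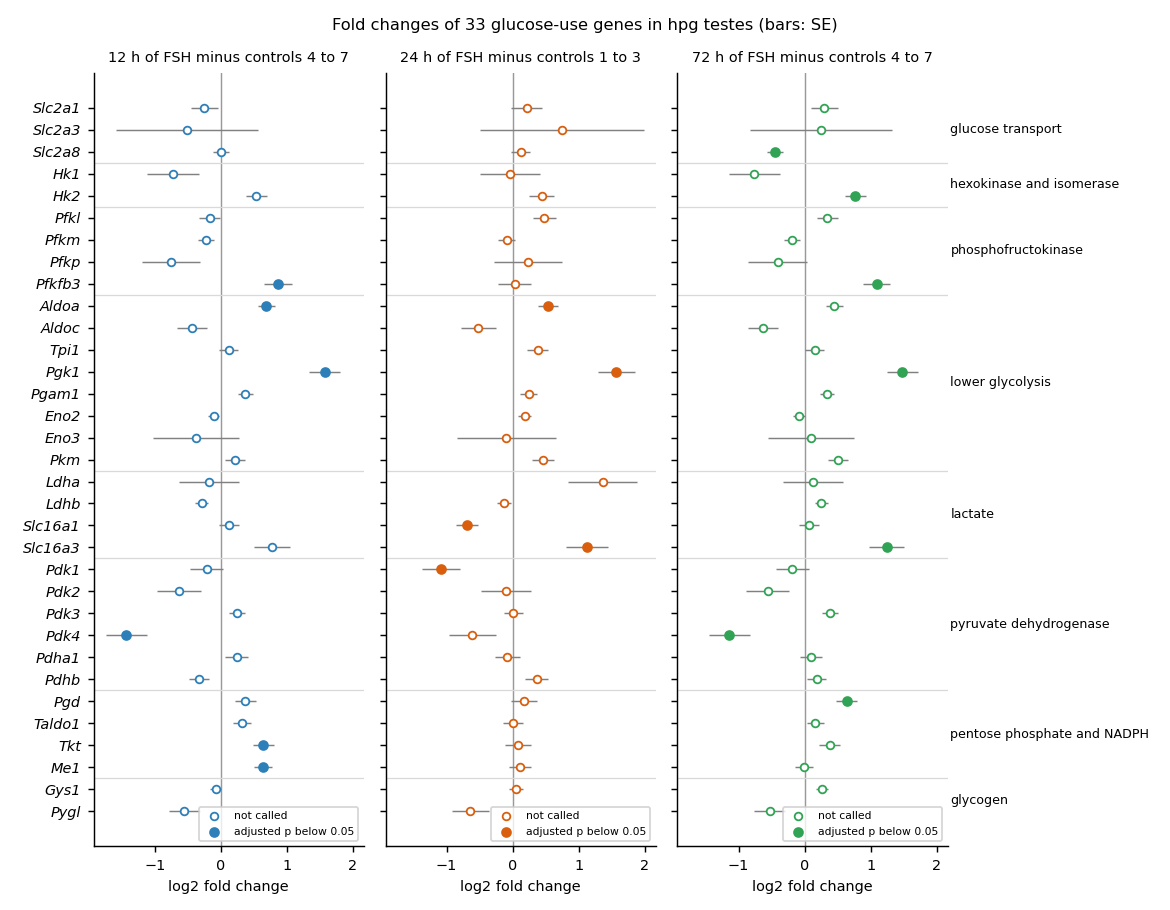
Log2 fold changes of 33 glucose-use genes (rows, in pathway order) at 12, 24 and 72 h of FSH, each against the untreated controls of its own array set. Points are limma estimates with SE bars and filled points have an adjusted p below 0.05. Pgk1 was the one gene filled in all 3 panels, and Pdk4 the lowest point at 12 and 72 h.

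The 5 genes called at 2 or more times are shown with the 250 bases before each annotated RefSeq start (GRCm38.p6), because they are the ones the results turn on. Of 2 overlapping Aldoa windows, the one farther upstream is given. Capitals mark ACGTG, a form of the hypoxia response element core, on either strand. CACGT on the printed strand is the other strand's match, so CACGTG counts on both. The form GCGTG was neither marked nor counted. The motif was chosen after the called genes were known, and matches are descriptions of sequence only.
Pgk1, chrX:106186850-106187099, plus strand: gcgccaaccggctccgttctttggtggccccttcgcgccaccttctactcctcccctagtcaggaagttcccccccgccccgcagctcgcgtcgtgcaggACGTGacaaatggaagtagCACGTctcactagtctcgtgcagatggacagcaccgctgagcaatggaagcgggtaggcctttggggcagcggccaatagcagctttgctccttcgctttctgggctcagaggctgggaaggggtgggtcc
Aldoa, chr7:126799255-126799504, minus strand: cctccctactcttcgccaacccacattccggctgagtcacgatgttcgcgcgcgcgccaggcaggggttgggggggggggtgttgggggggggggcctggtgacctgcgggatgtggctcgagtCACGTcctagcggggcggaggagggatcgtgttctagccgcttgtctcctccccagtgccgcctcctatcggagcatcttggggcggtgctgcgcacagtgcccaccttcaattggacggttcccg
Aldoa, chr7:126800448-126800697, minus strand: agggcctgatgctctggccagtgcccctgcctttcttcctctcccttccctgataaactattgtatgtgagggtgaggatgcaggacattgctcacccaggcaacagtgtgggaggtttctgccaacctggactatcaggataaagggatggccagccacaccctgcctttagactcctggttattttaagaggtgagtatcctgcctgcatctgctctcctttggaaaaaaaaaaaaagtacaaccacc
Pfkfb3, chr2:11502091-11502340, minus strand: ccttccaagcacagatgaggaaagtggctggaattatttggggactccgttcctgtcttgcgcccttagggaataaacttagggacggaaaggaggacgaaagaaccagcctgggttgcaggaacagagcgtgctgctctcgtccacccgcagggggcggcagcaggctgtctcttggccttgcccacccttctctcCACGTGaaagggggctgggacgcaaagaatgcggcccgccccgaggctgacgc
Pfkfb3, chr2:11553930-11554179, minus strand: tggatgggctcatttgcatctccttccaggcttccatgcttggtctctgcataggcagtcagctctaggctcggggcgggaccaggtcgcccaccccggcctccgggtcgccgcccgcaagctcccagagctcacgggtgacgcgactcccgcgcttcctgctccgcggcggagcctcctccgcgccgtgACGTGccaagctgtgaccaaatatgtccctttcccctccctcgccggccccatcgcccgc
Slc16a3, chr11:120948817-120949066, plus strand: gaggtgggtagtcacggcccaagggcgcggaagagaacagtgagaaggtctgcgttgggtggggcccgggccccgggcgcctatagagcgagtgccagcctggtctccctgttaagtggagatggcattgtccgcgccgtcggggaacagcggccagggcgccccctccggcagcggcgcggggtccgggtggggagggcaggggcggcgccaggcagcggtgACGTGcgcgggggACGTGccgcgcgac
Pdk4, chr6:5496279-5496528, minus strand: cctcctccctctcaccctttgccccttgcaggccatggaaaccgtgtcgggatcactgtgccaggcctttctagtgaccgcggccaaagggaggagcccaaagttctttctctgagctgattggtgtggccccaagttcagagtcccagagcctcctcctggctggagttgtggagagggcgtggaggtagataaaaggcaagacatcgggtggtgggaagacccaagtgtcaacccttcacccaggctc
ACGTG was present on either strand in 6 of the 8 windows of these 5 genes. The windows without ACGTG were the upstream Aldoa start and Pdk4, though the Pdk4 window holds GCGTG. The 2 overlapping Aldoa windows share 1 such site, which is counted in both. RefSeq starts were found for 32 of the 33 genes, and 19 of their 46 windows (41.3%) held the motif, beside 16.6% of all 32851 windows in the table. The windows also differed in base composition, with a median GC content of 60.4% for the 46 and 52.4% for all. TGACG, the half-site of the cAMP response element, was in 19.6% of the 46 windows and 17.8% of all. The overlapping form TGACGTG was in 4 of the 46 windows, those of Pfkfb3, Slc16a3, Hk2 and Pdhb, and in 1.6% of all windows.

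Glucose transport came first in the route. Slc2a1, the widespread basal glucose transporter, Slc2a3, a high-affinity transporter of neurons and germ cells, and Slc2a8, an intracellular transporter, were measured. None was called at 12 or 24 h, and at 72 h only Slc2a8 was. Slc2a8 read 3.84, 3.54, 4.26 and 4.17 in the 72 h mice, against 4.57, 4.32, 4.34 and 4.36 in controls 4 to 7. The highest treated value lay just under the lowest control, and all 8 lay below the highest array median of 4.63. Slc2a8 at 72 h fell by 0.45 on the log2 scale (SE 0.12, 1.36-fold lower, adjusted p = 0.0425). This call was lost in 15 of the 18 fits that left out 1 array (adjusted p 0.0501 to 0.128). It was kept only without 12 h replicate 3, 72 h replicate 3 or 72 h replicate 4, and was lost in the fit on the 12 spiked arrays alone (adjusted p = 0.0949), without control 6 (-0.47, adjusted p = 0.0654), with quantile normalization (0.102) and with array weights (0.0782).

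Slc2a1 read 7.06 to 7.59 in the 12 h mice and 7.43 to 8.07 in the 72 h mice, against 7.12 to 7.94 in controls 4 to 7, and 7.78 to 8.29 in the 24 h mice, against 7.61 to 8.14 in controls 1 to 3. The groups overlapped at every time, with log2 fold changes of -0.25 ± 0.20, 0.21 ± 0.23 and 0.30 ± 0.20 (SE) and adjusted p-values of 0.713, 0.561 and 0.563. A dimmer Slc2a1 probe set gave -0.10, 0.18 and 0.08, and the dimmest gave -0.41, 0.38 and -0.16, none called. The sign at 72 h thus depended on the probe set. Slc2a3 spread so widely between mice that its log2 fold changes (-0.51 ± 1.08, 0.74 ± 1.24 and 0.25 ± 1.08) had errors of over 1, and its values are taken up below.

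The hexokinases trap glucose as glucose 6-phosphate. Hk2, the inducible form, was called at 72 h. It read 9.84, 9.90, 9.98 and 9.65 in the 72 h mice, against 9.14, 9.14, 9.07 and 8.93 in controls 4 to 7. Every treated mouse lay above every control. The difference was 0.77 ± 0.16 (SE, 1.71-fold, adjusted p = 0.0102), and 0.77 ± 0.18 without control 6 (adjusted p = 0.0236). At 12 h Hk2 read 9.41, 9.29, 10.01 and 9.74, also above all 4 controls, but its difference of 0.54 ± 0.16 was not called (adjusted p = 0.0718). At 24 h it read 9.74, 9.81 and 9.35, against 9.12, 9.54 and 8.91 in controls 1 to 3, and these groups overlapped (0.44 ± 0.19, adjusted p = 0.128). The difference between 72 h and 12 h was 0.23 ± 0.16 (adjusted p = 0.79).

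Hk1, the widespread form with a germ cell variant, read 5.71 to 6.15 at 12 h and 5.65 to 6.20 at 72 h, against 6.55, 6.17, 8.23 and 5.61 in controls 4 to 7. The one high value, 8.23, was that of control 6. The log2 fold changes were -0.72 ± 0.39 and -0.76 ± 0.39 (adjusted p = 0.44 and 0.376), and without control 6 they were -0.19 ± 0.22 and -0.23 ± 0.22 (adjusted p = 0.973 and 0.769). At 24 h Hk1 read 5.79 to 6.07, against 5.52 to 6.23 in controls 1 to 3 (-0.04 ± 0.46, adjusted p = 0.965).

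Phosphofructokinase commits sugar to glycolysis. Its liver, muscle and platelet subunits Pfkl, Pfkm and Pfkp were not called at any time, with log2 fold changes between -0.76 and 0.48. Pfkfb3 makes fructose 2,6-bisphosphate, the strongest activator of phosphofructokinase, and it was called at 12 h and 72 h. Pfkfb3 read 6.60, 6.67, 6.0 and 6.07 in the 12 h mice and 6.31, 6.19, 6.75 and 6.95 in the 72 h mice, against 5.29, 5.56, 5.27 and 5.75 in controls 4 to 7. All 8 treated mice lay above all 4 controls. The 12 h difference was 0.87 ± 0.21 (SE, 1.83-fold, adjusted p = 0.0275). The 72 h difference was 1.09 ± 0.21 (2.13-fold, adjusted p = 0.00664). Without control 6 they were 0.81 (adjusted p = 0.0773) and 1.02 (adjusted p = 0.021).

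At 24 h Pfkfb3 read 5.58, 5.53 and 5.62, against 5.12, 6.0 and 5.53 in controls 1 to 3. The treated mice lay within the range of these controls (0.03 ± 0.25, adjusted p = 0.955). The control-adjusted difference of 24 h from 12 h was -0.85 ± 0.33 (adjusted p = 0.238) and that of 72 h from 24 h was 1.06 ± 0.33 (adjusted p = 0.214), so a dip at 24 h did not pass the test. A dimmer second probe set (mean 2.75, near the floor) gave -0.14, 0.31 and -0.20 and was not called. The 12 h call did not hold without 12 h replicate 1 or 2 or control 4 or 6 (adjusted p 0.0773 to 0.0826), and both calls were lost when the median of the 2 probe sets was used (0.37 and 0.44, adjusted p = 0.338 and 0.196).

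In lower glycolysis, 8 of 10 listed genes were measured on ordinary probe sets. Of these, 2 were called higher at 12 h, 2 at 24 h and 1 at 72 h, with none lower. Beside this, 3.52%, 6.38% and 4.23% of all genes were called higher at 12, 24 and 72 h. Pgk1, phosphoglycerate kinase, had the largest fold change of the 33 genes at each time. It read 9.28, 9.16, 8.98 and 9.17 in the 12 h mice and 8.82, 9.06, 9.20 and 9.14 in the 72 h mice, against 7.75, 8.40, 7.00 and 7.16 in controls 4 to 7. In the 24 h mice it read 9.58, 9.48 and 9.46, against 8.31, 7.93 and 7.57 in controls 1 to 3. The treated mice lay close together and all above the controls, which differed more from each other. The 12 h difference was 1.57 ± 0.24 (2.97-fold, adjusted p = 0.000999) and the 24 h difference 1.57 ± 0.28 (2.97-fold, adjusted p = 0.00204). That of 72 h was 1.48 ± 0.24 (2.78-fold, adjusted p = 0.00165). Leaving out any 1 array kept all 3 calls, with values of 1.29 to 1.84, and without control 6 the differences at 12 h and 72 h were 1.38 and 1.29.

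Pgk1 was also read by 2 more probe sets, and both were called higher at all 3 times. Their log2 fold changes were 0.93, 1.06 and 1.03 for the second and 0.64, 1.06 and 0.77 for the third at 12, 24 and 72 h. The brightest and the third probe set carry the array maker's x mark, given to probe sets whose probes may match other transcripts, while the second does not. The difference of Pgk1 between 72 h and 12 h was -0.09 ± 0.24 (adjusted p = 0.964).

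Aldoa, aldolase A, splits fructose 1,6-bisphosphate. It read 11.14, 11.60, 11.52 and 11.59 in the 12 h mice and 11.33, 11.18, 11.25 and 11.14 in the 72 h mice, against 10.69, 10.79, 10.94 and 10.69 in controls 4 to 7. In the 24 h mice it read 11.44, 11.48 and 11.05, against 11.03, 10.88 and 10.47 in controls 1 to 3. The treated mice lay above the controls of their set at every time. Aldoa was higher at 12 h by 0.69 ± 0.13 (1.61-fold, adjusted p = 0.00553) and at 24 h by 0.53 ± 0.15 (1.44-fold, adjusted p = 0.0343). At 72 h the difference was 0.45 ± 0.13 (adjusted p = 0.0617). Without control 6 the 12 h difference was 0.74 (adjusted p = 0.00751).

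The other 3 Aldoa probe sets gave 0.57 to 0.73 for 12 h, 0.46 to 0.63 for 24 h and 0.49 to 0.55 for 72 h, and 2 of them were called at 72 h, so the calls at 24 h and 72 h depend on the probe set. Every Aldoa probe set carries the x mark, so none is free of possible matches to other transcripts. The 24 h call did not hold without 24 h replicate 1 or 2 or control 2 or 3 (adjusted p 0.0523 to 0.118), in the fit on the 6 unspiked arrays alone (adjusted p = 0.264), with array weights (0.0666) and with quantile normalization (0.0612). With the replicate number as a block over all arrays its adjusted p was 0.09, and with a block of the 24 h mice and controls 1 to 3 only it was 0.00632.

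Gapdh, which makes 1,3-bisphosphoglycerate and is a common reference gene, was read from control probe sets at 3 positions of the transcript, in a fit over 22629 probe sets. At the 5′ end it read 12.65, 12.87, 12.86 and 12.94 in the 12 h mice and 12.56, 12.44, 12.45 and 12.46 in the 72 h mice, against 12.10, 12.25, 12.14 and 12.13 in controls 4 to 7. In the 24 h mice it read 12.74, 12.78 and 12.53, against 12.03, 12.01 and 12.02 in controls 1 to 3. The treated mice lay above the controls at all 3 positions and times. The differences were 0.68 ± 0.06 (adjusted p = 1.8e-05), 0.66 ± 0.07 (adjusted p = 6.6e-05) and 0.33 ± 0.06 (adjusted p = 0.00665) at 12, 24 and 72 h. The middle and 3′ probe sets gave 0.62 and 0.56 for 12 h, then 0.56 and 0.39 for 24 h, all called. At 72 h they gave 0.33 and 0.25, neither called (adjusted p = 0.0526 and 0.093). Without control 6 the 5′, middle and 3′ probe sets gave 0.67, 0.70 and 0.60 for 12 h, all called, and 0.32, 0.41 and 0.28 for 72 h (adjusted p = 0.0184, 0.0187 and 0.0717). These probe sets were added to the analysis after the file was seen.

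Pkm, pyruvate kinase, read 9.47, 10.20, 10.07 and 10.25 at 12 h and 10.09, 10.35, 10.30 and 10.34 at 72 h, against 9.72, 9.69, 9.84 and 9.84 in controls 4 to 7. At 24 h it read 10.08, 10.35 and 9.99, against 9.72, 9.90 and 9.43 in controls 1 to 3. Treated and control mice did not overlap at 24 and 72 h, yet no time was called (0.22 ± 0.15, 0.46 ± 0.17 and 0.50 ± 0.15, adjusted p = 0.581, 0.0889 and 0.0666). Of the other genes of this stretch, Tpi1, Pgam1, Eno2, Eno3 and Aldoc, none was called. Pgam1, a phosphoglycerate mutase, came nearest, at 0.37 ± 0.11 at 12 h (adjusted p = 0.0695).

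**Figure D2:**
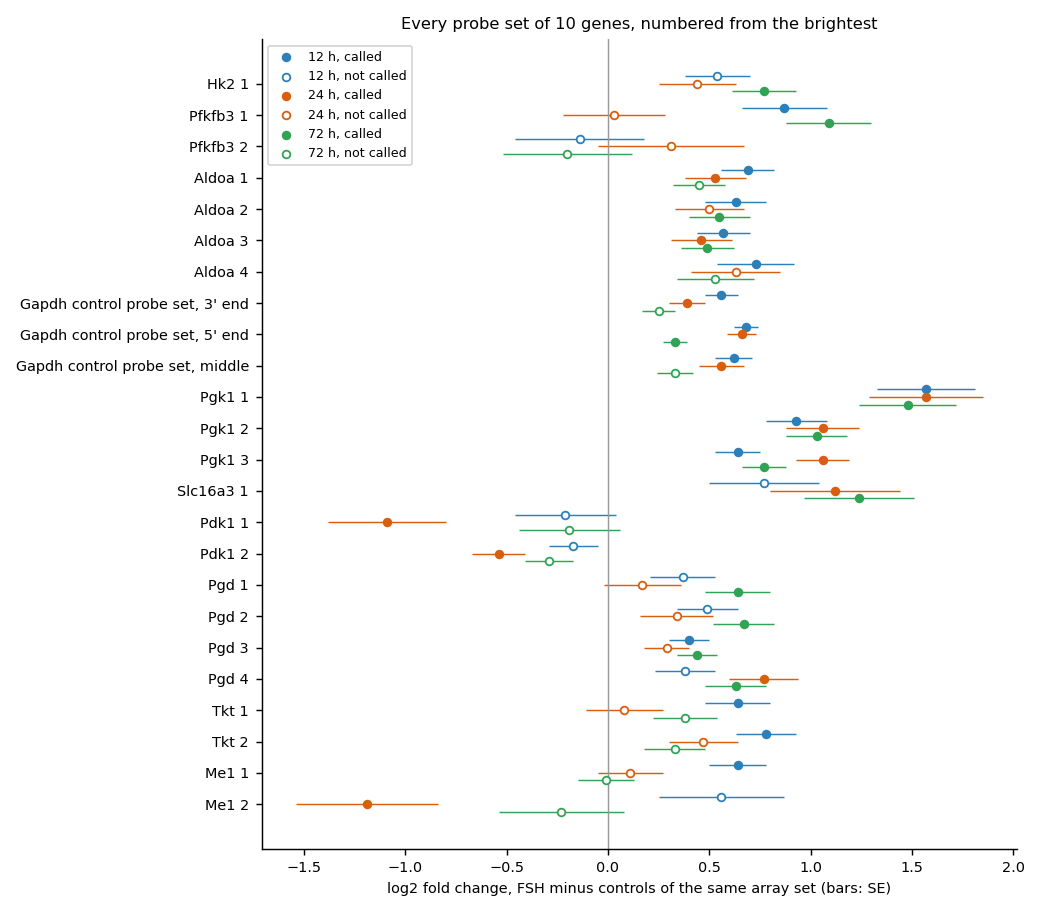
Log2 fold changes of every probe set of 10 genes (rows, numbered from the brightest), with FSH at 12, 24 and 72 h set against the controls of the same array set, SE bars, and filled points for an adjusted p below 0.05. All 3 Pgk1 and all 4 Aldoa probe sets lay above 0 at each time, whereas the 2 Me1 probe sets differed at 24 h (0.11 and -1.19).

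At the lactate end, Slc16a3 (also known as MCT4), a low-affinity transporter that exports lactate from glycolytic cells, was called at 24 h and 72 h. It read 5.47, 6.38, 5.74 and 5.83 in the 12 h mice and 6.50, 6.48, 6.68 and 5.64 in the 72 h mice, against 5.15, 4.77, 5.18 and 5.24 in controls 4 to 7. In the 24 h mice it read 6.90, 6.32 and 5.66, against 5.30, 5.34 and 4.88 in controls 1 to 3. All 11 treated mice lay above the controls of their set. The 24 h mice were higher by 1.12 ± 0.32 (2.18-fold, adjusted p = 0.0308). The 72 h mice were higher by 1.24 ± 0.27 (2.36-fold, adjusted p = 0.013), and by 1.27 without control 6 (adjusted p = 0.0253). At 12 h the difference was 0.77 ± 0.27 (1.71-fold, adjusted p = 0.142), and 72 h differed from 12 h by 0.47 ± 0.27 (adjusted p = 0.639). The 24 h call did not hold without 24 h replicate 1 or 2 or control 1 or 3 (adjusted p 0.068 to 0.0872), in the fit on the unspiked arrays alone (adjusted p = 0.199) and with array weights (0.124). It had an adjusted p of 0.0693 with the replicate number as a block over all arrays, and of 0.0147 with a block of the 24 h mice and controls 1 to 3 only.

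Slc16a1 (MCT1), the widespread lactate and pyruvate transporter, was lower at 24 h. It read 9.05, 9.08 and 8.87 in the 24 h mice, against 10.02, 9.76 and 9.29 in controls 1 to 3. The 3 treated mice lay below the 3 controls. Slc16a1 fell by 0.69 on the log2 scale (SE 0.17, 1.62-fold lower, adjusted p = 0.016). At 12 h it read 9.57 to 9.80 and at 72 h 9.41 to 9.85, against 9.28 to 9.74 in controls 4 to 7 (0.12 ± 0.15 and 0.07 ± 0.15, adjusted p = 0.958 and 0.931). The control-adjusted difference of 24 h from 12 h was -0.81 ± 0.23 (adjusted p = 0.112), so the fall was not shown to belong to 24 h. The call did not hold without 24 h replicate 3 or control 1 (adjusted p = 0.0509 and 0.082), in the fit on the unspiked arrays alone (0.182) and with array weights (0.0856).

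Ldhb, the lactate dehydrogenase subunit common in oxidative tissues, was not called against controls on its brightest probe set but differed between times. It read 12.05, 12.22, 11.97 and 12.12 in the 12 h mice and 12.45, 12.66, 12.73 and 12.67 in the 72 h mice, against 12.43, 12.35, 12.42 and 12.32 in controls 4 to 7. All 12 h mice lay below the controls and all 72 h mice above them. The 12 h difference from controls was -0.29 ± 0.10 (adjusted p = 0.116), the 72 h difference 0.25 ± 0.10 (adjusted p = 0.173), and the difference of 72 h from 12 h was 0.54 ± 0.10 (1.45-fold, adjusted p = 0.00823). Of its 3 dimmer probe sets, 1 was called lower at 12 h (-0.27, adjusted p = 0.0477), and all 3 were called higher at 72 h than at 12 h, at 0.34 to 0.50. Without control 6 the 12 h and 72 h differences of the brightest from controls were -0.27 and 0.26 (adjusted p = 0.224 and 0.214). At 24 h Ldhb read 11.96, 11.74 and 11.64, against 12.08, 12.00 and 11.63 in controls 1 to 3 (-0.13 ± 0.11, adjusted p = 0.448). Of the 33 genes, Ldhb was higher and Me1 was lower at 72 h than at 12 h, beside 1.76% and 1.10% of all genes.

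No member passed the test of 24 h against 12 h or of 72 h against 24 h, each adjusted for its own controls. By limma 9 and 5 of the 33 had an unadjusted p below 0.05 in these comparisons, beside 2134 and 1512 of 12393 genes. At an adjusted p below 0.05, 0.928% and 0.339% of all genes were called. With the median of the probe sets of each gene, 1 member differed between 72 h and 12 h.

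At the entry to mitochondria, 4 kinases that switch off pyruvate dehydrogenase and 2 subunits of the complex were measured. Pdk4, the kinase induced by fasting and fatty acid use, was lower at 12 h and 72 h. It read 3.74, 2.65, 3.42 and 2.79 in the 12 h mice and 3.25, 3.57, 3.29 and 3.63 in the 72 h mice, against 5.24, 4.65, 3.55 and 4.87 in controls 4 to 7. The lowest control, 3.55, was control 6, and the other 3 controls lay above all treated mice. The 12 h mice were 2.69-fold lower (-1.43 ± 0.31, adjusted p = 0.013). The 72 h mice were 2.21-fold lower (-1.14 ± 0.31, adjusted p = 0.043). Without control 6 the values were -1.77 ± 0.24 and -1.48 ± 0.24 (adjusted p = 0.000756 and 0.00273).

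At 24 h Pdk4 read 3.92, 3.57 and 3.32, against 4.44, 4.13 and 4.08 in controls 1 to 3, all below the controls and not called (-0.61 ± 0.36, adjusted p = 0.256). Treated values were close to the floor of the array, where log2 differences understate a change. The 72 h call was lost in 13 of the 18 fits that left out 1 array (adjusted p 0.0504 to 0.132), and was kept only without 12 h replicate 1 or 2, 24 h replicate 1 or 3, or control 6. It was also lost in the fit on the spiked arrays alone (0.0877) and with quantile normalization (0.0773).

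Pdk1, a kinase gene known to respond to hypoxia, was lower at 24 h. It read 7.49, 6.55 and 7.53 in the 24 h mice, against 8.53, 7.92 and 8.39 in controls 1 to 3. The 3 treated mice lay below the 3 controls, with 24 h replicate 2 the lowest. Pdk1 fell by 1.09 on the log2 scale (SE 0.29, 2.13-fold lower, adjusted p = 0.0234), and its second probe set fell by 0.54 (adjusted p = 0.0164). At 12 h and 72 h the groups overlapped (-0.21 ± 0.25 and -0.19 ± 0.25, adjusted p = 0.939 and 0.899). The control-adjusted difference of 24 h from 12 h was -0.88 ± 0.38 (adjusted p = 0.276). The call did not hold without 24 h replicate 2 or control 1 or 3 (adjusted p 0.0567 to 0.0966), in the fit on the unspiked arrays alone (0.198) and with array weights (0.114).

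Pdk2, Pdk3, Pdha1 and Pdhb were not called on their brightest probe sets, with log2 fold changes between -0.63 and 0.38. A dimmer probe set of Pdha1, which encodes the alpha subunit of the complex, was called higher at 24 h (0.73, adjusted p = 0.00419), while its brightest gave -0.08.

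In the pentose phosphate branch and NADPH supply, 2 of 4 genes were higher at 12 h and 1 at 72 h, beside 3.52% and 4.23% of all genes. None of the 4 was called lower than controls on its brightest probe set. Tkt, transketolase, read 11.48, 11.19, 11.67 and 11.78 in the 12 h mice, against 11.08, 11.12, 10.43 and 10.92 in controls 4 to 7. All treated mice lay above the controls, of which control 6 was the lowest. Tkt was 1.56-fold higher (0.64 ± 0.16, adjusted p = 0.034), and 0.49 ± 0.15 without control 6 (adjusted p = 0.0864). The call was also lost without 12 h replicate 1, 3 or 4 or control 7 (adjusted p 0.0613 to 0.111), in the fit on the spiked arrays alone (0.0501) and with quantile normalization (0.068). A second Tkt probe set, without the x mark that the brightest carries, was called at 12 h as well (0.78, adjusted p = 0.00439).

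Pgd, 6-phosphogluconate dehydrogenase, read 11.08, 11.36, 11.47 and 11.32 in the 72 h mice, against 10.83, 10.93, 10.22 and 10.68 in controls 4 to 7. All treated mice lay above the controls, with control 6 again the lowest. Pgd was 1.56-fold higher (0.64 ± 0.16, adjusted p = 0.031), and 0.49 ± 0.15 without control 6 (adjusted p = 0.076). The call was also lost without 72 h replicate 2, 3 or 4 or control 7 (adjusted p 0.0655 to 0.0927) and with quantile normalization (0.0509). All 4 Pgd probe sets were called at 72 h, at 0.44 to 0.67, and all but the dimmest carry the x mark. At 12 h and 24 h the brightest probe set gave 0.37 ± 0.16 and 0.17 ± 0.19 (adjusted p = 0.292 and 0.553), while a dimmer one was called higher at 12 h (0.40, adjusted p = 0.0231) and another at 24 h (0.77, adjusted p = 0.00911). The calls at 12 h and 24 h thus depend on the probe set.

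Me1, the cytosolic malic enzyme, read 10.51, 10.94, 11.14 and 11.15 in the 12 h mice and 10.43, 10.10, 10.32 and 10.29 in the 72 h mice, against 10.31, 10.50, 9.99 and 10.39 in controls 4 to 7. Every 12 h mouse lay above the controls, 1 of them only just, while the 72 h mice overlapped them. Me1 was 1.55-fold higher at 12 h (0.64 ± 0.14, adjusted p = 0.0145), and 72 h differed from 12 h by -0.65 ± 0.14 (adjusted p = 0.024). On the second probe set neither was called (0.56 and -0.79, adjusted p = 0.441 and 0.284). Without control 6 the 12 h difference was 0.53 (adjusted p = 0.0452). The 12 h call did not hold without 12 h replicate 3 or 4 (adjusted p = 0.0531 and 0.0546), against all 7 controls (0.40, adjusted p = 0.206) and with the median of its 2 probe sets (0.60, adjusted p = 0.0961). At 24 h the brightest probe set gave 0.11 ± 0.16 (adjusted p = 0.675) and the second was called lower (-1.19, adjusted p = 0.039), so the direction at 24 h depends on the probe set. On the second, the 24 h mice read 9.62, 10.03 and 9.68, against 11.49, 11.68 and 9.74 in controls 1 to 3. These groups overlapped, and the fall rested on the high values of controls 1 and 2. Taldo1, transaldolase, was not called (0.32, 0.00 and 0.16).

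Of the glycogen genes, neither Gys1, glycogen synthase, nor Pygl, liver glycogen phosphorylase, was called. Pygl gave -0.55 ± 0.24, -0.64 ± 0.28 and -0.53 ± 0.24 at 12, 24 and 72 h (adjusted p = 0.284, 0.141 and 0.295).

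**Figure D3:**
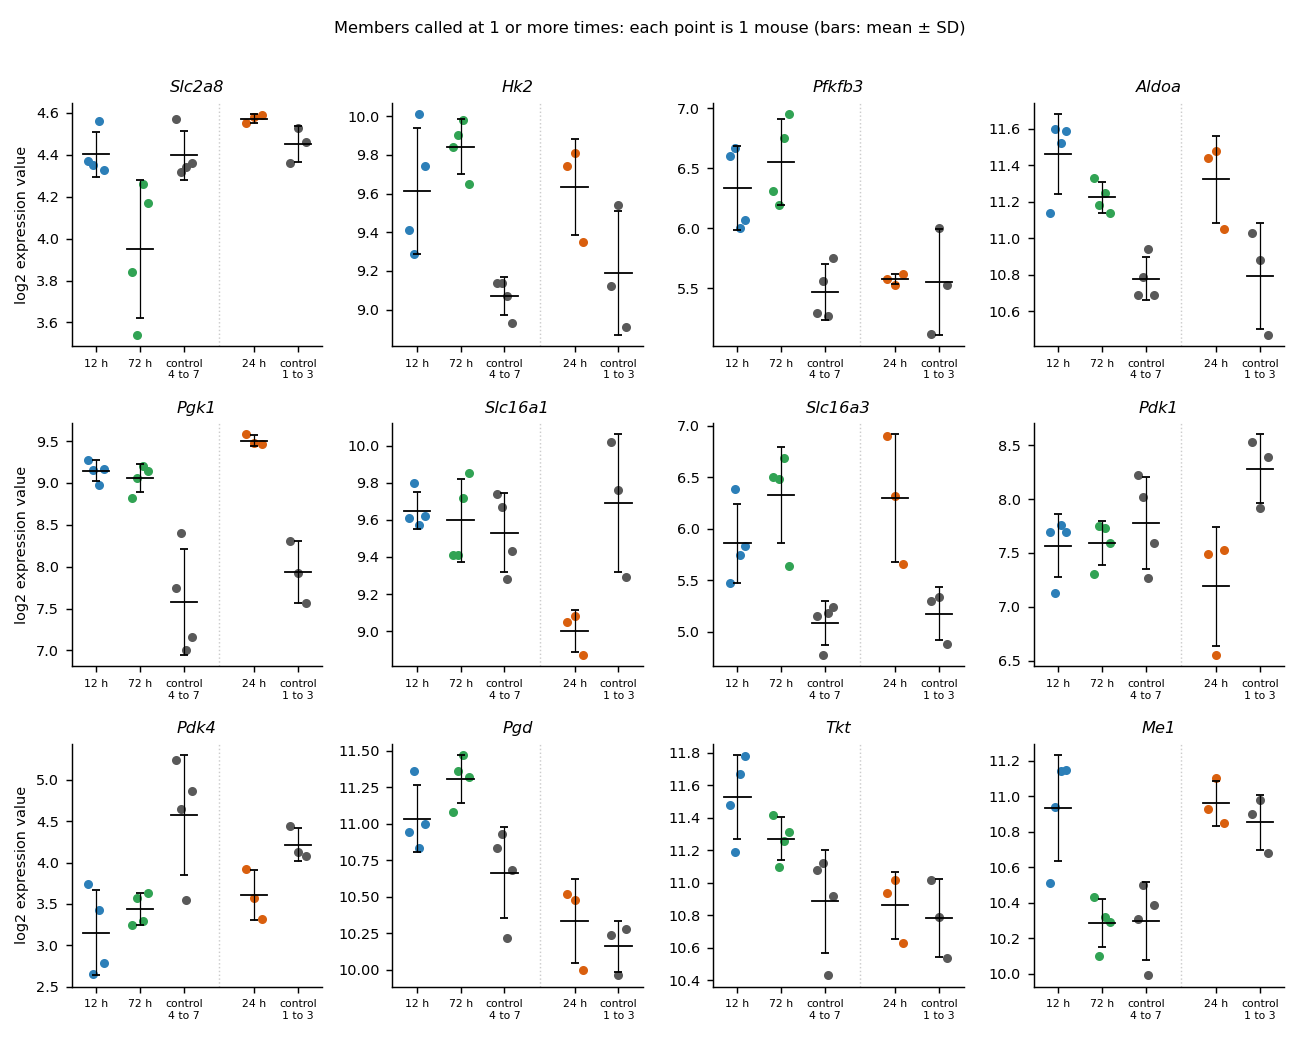
Log2 expression values of the 12 genes called at 1 or more times, with 1 point per mouse and bars for mean and SD. Groups left of the dotted line belong to the spiked arrays (12 h, 72 h, controls 4 to 7) and those right of it to the unspiked arrays (24 h, controls 1 to 3). Pgk1, Aldoa and Slc16a3 lay above the controls of their own set in all 11 treated mice.

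Some members varied widely between mice of 1 group. The pooled SD within groups was 1.60 for Slc2a3, 0.96 for Eno3 and 0.67 for Ldha, against a median of 0.24 over the 33 members and 0.19 over all genes. Slc2a3 read 9.52, 8.84, 8.94 and 7.62 at 12 h and 10.05, 9.73, 9.01 and 9.15 at 72 h, against 9.81, 6.32, 10.65 and 10.16 in controls 4 to 7. At 24 h it read 9.27, 5.64 and 10.42, against 6.84, 6.54 and 9.75 in controls 1 to 3. Its 4 lowest mice were 24 h replicate 2 and controls 1, 2 and 5. Slc2a3 has 4 probe sets, and this is the brightest. The 2 dimmest read 2.74 to 3.53 and 2.31 to 2.43 on the 12 spiked arrays, control 6 included. On the unspiked arrays they read 5.76 to 7.17 in 24 h replicates 1 and 3 and control 3. In 24 h replicate 2 and controls 1 and 2 they read 2.45 to 3.13. The spread of Slc2a3 between mice thus depended on the probe set and the array set. Eno3, the muscle enolase, had the same 4 lowest mice, and read 2.76 in 24 h replicate 2 and 4.64, 5.09 and 5.35 in controls 1, 2 and 5, against 5.60 to 7.02 in the other 14.

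Ldha, the lactate dehydrogenase subunit that favours lactate, read 9.76, 9.23 and 10.43 in the 24 h mice, against 7.98, 8.11 and 9.25 in controls 1 to 3. The lowest treated and the highest control value crossed by a small margin, and the difference of 1.36 ± 0.52 was not called (2.57-fold, adjusted p = 0.0974). At 12 h and 72 h Ldha read 9.17 to 9.57 and 9.24 to 10.31, against 8.32 to 10.89 in controls 4 to 7 (-0.18 ± 0.45 and 0.13 ± 0.45, adjusted p = 1 and 0.944). Controls 1, 2 and 5 were again its 3 lowest mice, and control 6 its highest.

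A few other genes were picked to be ranked by mouse, and several of them, among them germ cell forms of the same enzymes, had the same low mice. The rest of the germ cell list, Pgk2 included, was not ranked in this way. Ldhc, the germ cell lactate dehydrogenase, read 6.89 in 24 h replicate 2 and 7.64, 7.22 and 6.48 in controls 1, 2 and 5, against 8.37 to 12.42 in the other 14 mice. Fbp1, a fructose bisphosphatase that was not on the list of germ cell markers, read 4.61, 3.51, 3.10 and 2.88 in the same 4 mice. It read 5.08 to 10.05 in the others. Pdha2, a germ cell marker, and Pgam2, taken from the skeletal muscle list, also had these 4 as their lowest. Hspa2, a heat shock protein of spermatocytes (7.47 to 10.46), had 12 h replicate 4 in place of control 1 among its 4 lowest. Sycp3, present throughout meiosis, spanned 11.09 to 12.33 and Dazl, a germ cell RNA-binding protein, 10.39 to 11.21, each with 24 h replicate 2 and 3 other mice lowest, of which control 2 was shared for Sycp3 and none for Dazl. The part of germ cell content in the values of Slc2a3, Eno3 and Ldha was not tested.

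**Figure D4:**
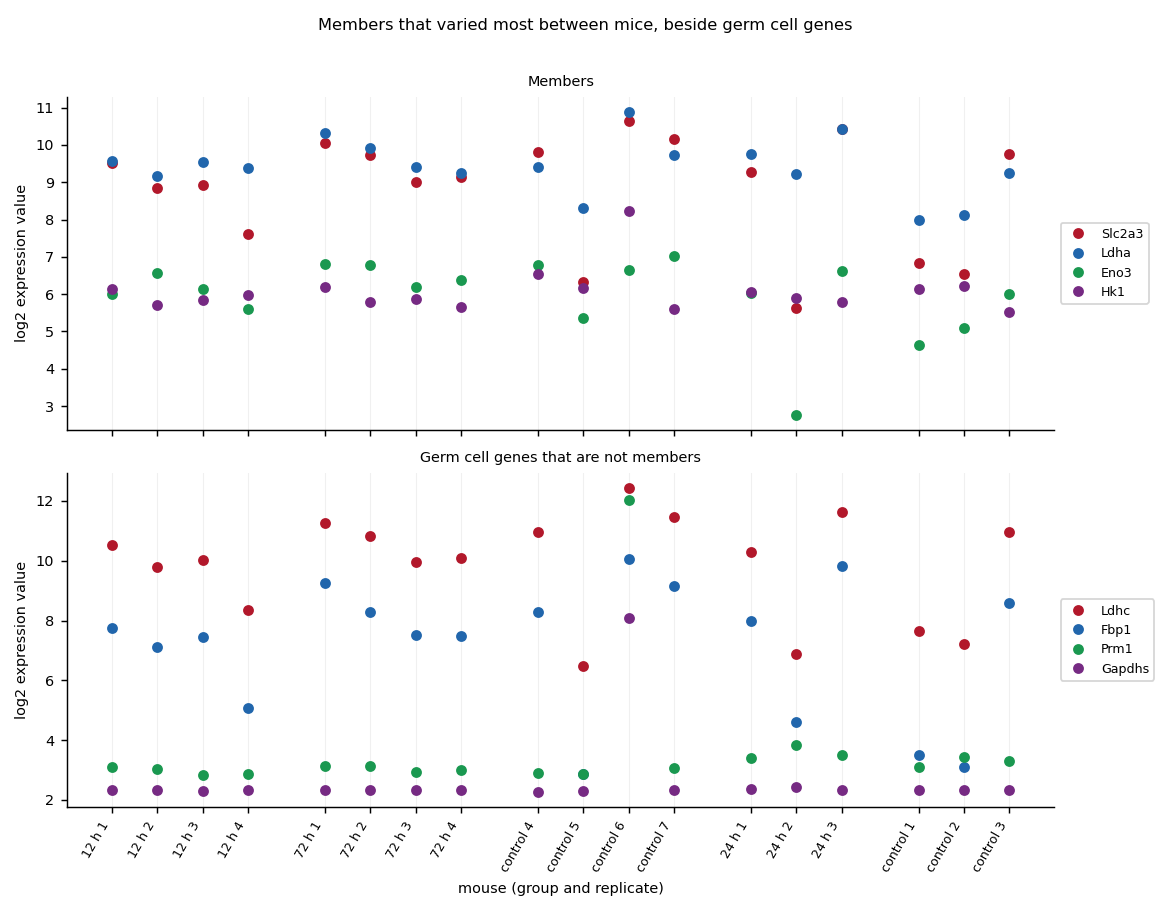
Log2 expression values of 4 members (top) and of 4 genes that are not members (bottom) in each of the 18 mice, 1 point per mouse and gene. Of the bottom genes, Ldhc, Prm1 and Gapdhs were on the list of germ cell markers and Fbp1 was not. Slc2a3 (5.64 to 10.65) and Ldhc (6.48 to 12.42) were lowest in 24 h replicate 2 and controls 1, 2 and 5, and Prm1 and Gapdhs were high in control 6 only.

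Further genes of the route came from 7 lists of 69 genes, of which 53 were measured. In these, 3 were called higher and 0 lower at 12 h, 2 higher and 3 lower at 24 h, and 2 higher and 1 lower at 72 h. These are 5.66%, 9.43% and 5.66% of the 53, shares below the 6.28%, 14.8% and 7.26% of all genes. The other glucose entry (8 genes), glycolysis (7), lactate and pyruvate (6) and pyruvate dehydrogenase (3) genes had none called by limma at any time, with 2, 1, 3 and 0 results, gene by time, at an unadjusted p below 0.05. Gpd1, the cytosolic glycerol phosphate dehydrogenase that links glycolysis to lipid synthesis, was higher at all 3 times. Gpd1 read 5.93 to 6.37 at 12 h and 6.28 to 6.62 at 72 h, against 4.25 to 4.36 in controls 4 to 7, and 6.23 to 6.77 at 24 h, against 4.28 to 4.52 in controls 1 to 3. The differences were 1.92 ± 0.12, 2.0 ± 0.14 and 2.20 ± 0.12 (adjusted p = 6.6e-07, 1.23e-06 and 2.31e-07).

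Pgls, the lactonase of the pentose phosphate branch, was higher at each of the 3 times, with differences of 0.42 ± 0.10, 0.97 ± 0.12 and 0.53 ± 0.10 (adjusted p = 0.0262, 0.000124 and 0.00594). It read 8.30, 8.31 and 8.17 in the 24 h mice, against 7.27, 7.32 and 7.27 in controls 1 to 3. Pygb, brain glycogen phosphorylase, was lower at 24 h and 72 h, with differences of -1.40 ± 0.20 and -0.81 ± 0.17 (adjusted p = 0.000486 and 0.0107). Pygb read 7.53, 8.26 and 7.97 in the 24 h mice, against 9.39, 9.70 and 8.86 in controls 1 to 3. Its 12 h difference was -0.60 ± 0.17 (adjusted p = 0.0602).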

How the data were processed

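Per the labels' protocols, total RNA of each testis sample was labelled and hybridised to 1 Affymetrix MOE430A array. The authors deposited 1 table with a log2 value for each probe set and array. RMA and GCRMA stand in the submitters' processing notes, with no version. Which of them made the values is not given in the sources used here, and the log2 scale was taken from their range (1.04 to 15.2). Of 22690 probe sets, 64 controls were left out and 22626 were tested with no filter on low values. The annotation gave 20380 of them 1 symbol, 691 several and 1555 none.

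Groups and array sets entered as 5 means over all 18 arrays in limma 3.58.1 (R 4.3.3), fitted with lmFit and tested two-sided with eBayes on 13 residual degrees of freedom, with Benjamini-Hochberg adjustment over all tested probe sets. In this fit each fold change equals that within its array set. The design text sets each time against all 7 controls, which is an alternative here. The number of arrays limits the precision. The highest correlation between 2 arrays was 0.997, and none was a duplicate. The fit was tested on simulated data. Replicate numbers come from the sample titles. The deviations from group means of same-numbered mice correlated at 0.18, 0.34 and 0.41 in the 3 pairs of 24 h mice and controls 1 to 3. In the other 18 pairs they correlated at -0.24 to 0.13, of which 2 were over 0.1. The main fit held no term for pairs, so its 24 h results treat these mice as unpaired. Pairing entered only in the alternatives with a replicate block. The members and lists were chosen with earlier results of these data known. For each called member, values are given in every mouse of the groups compared at the time of its call, and for selected further times and steps. Genes of the 7 further lists of the route are named where called at 2 or more times. Of the other lists, selected genes are named. Promoter windows came from RefSeq (GRCm38.p6). Alternatives were all 7 controls without the array set, fits within a set, quantile normalization, a filter on the mean, another variance model, array weights, the median of probe sets, replicate numbers as a block over all arrays or, added after seeing the data, in the 24 h mice and controls 1 to 3 only, and leaving out each array.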

Additional observations from a re-analysis of the deposited data

Results flagged for a closer look

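In groups of 4 mice, 108 member-by-group sets were examined for 1 value far from the other 3, and 7 were found, where chance alone would flag about 1 in 20. Slc2a8 read 4.56 in 12 h replicate 3, against 4.33 to 4.37 in the other 12 h mice, and 4.57 in control 4, against 4.32 to 4.36 in controls 5 to 7. Pdk1 read 7.13 in 12 h replicate 2, against 7.69 to 7.76 in the other 3. Gapdh, on its middle probe set, read 12.43 in 12 h replicate 1, against 12.63 to 12.66 in the other 3. Eno2 read 2.75 in control 5, against 2.46 to 2.47 in controls 4, 6 and 7. Pdha1 read 7.17 in control 6, against 7.40 to 7.41, and Gys1 read 3.95 in control 7, against 3.85 to 3.86.

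Ldhb and Me1 differed between 72 h and 12 h of FSH in the test of that difference, by 0.54 and -0.65 on the log2 scale (limma, adjusted p = 0.00823 and 0.024). Ldhb was higher in all 4 of the 72 h mice than in any 12 h mouse, and Me1 was lower in all 4.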

How the results depend on the processing

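Of the 18 calls of a member at a time, the calls of Pgk1 at 12 and 24 h held under every alternative run. No direction reversed. Against all 7 controls with no array set, 11 members were called at 24 h, 13 at 72 h and 19 at any time. Between times, 0, 10 and 7 were called in 72 h against 12 h, 24 h against 12 h and 72 h against 24 h. In that fit the comparisons with 24 h crossed the array sets directly, with no adjustment for controls, unlike those of the main fit. Fits within a set called 1 member at 24 h and 1 in 72 h against 12 h, and gave no value for the comparisons that cross sets. With array weights 1 member was called at 24 h, 11 at 72 h and 6 in 72 h against 12 h. With the median of the probe sets 1 was called in 72 h against 12 h. Quantile normalization, the filter on the mean and the other variance model kept all of these counts within 1.5 times. Leaving out 1 array gave 4 to 8 members at 12 h, 2 to 6 at 24 h, 4 to 8 at 72 h and 7 to 11 at any time. Between times it gave 1 to 3 for 72 h against 12 h, 0 to 1 for 24 h against 12 h and 0 to 1 for 72 h against 24 h. With the replicate block over all arrays and the array set, 1, 3 and 0 members were called at 12, 24 and 72 h, 0 in 72 h against 12 h and 2 at any time. In that fit controls 5 to 7 share no number with a treated mouse. With the replicate block in the 24 h mice and controls 1 to 3 only, chosen after seeing the data, 8, 6 and 8 members were called at 12, 24 and 72 h, 12 at any time and 1 in 24 h against 12 h. All 5 calls at 24 h held in it, and those of Slc2a8 and Pdk4 at 72 h did not (adjusted p = 0.0598 and 0.0527). The cause of these shifts was not tested. Low values, such as those of Pdk4, sit near the floor of the array and bound what can be seen.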

Other observations

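Genes known to respond to hypoxia, several of which share regulators with glycolytic genes, were called in both directions at 12 h and 72 h and only lower at 24 h. Of 13 measured genes on a list of 15, 2 were higher and 1 lower at 12 h, 0 higher and 3 lower at 24 h, and 1 higher and 2 lower at 72 h. The called share was 23.1% of the 13 at each time, beside 6.28%, 14.8% and 7.26% of all genes. Ndrg1, a stress-induced gene, was lower at 24 h by -2.08 ± 0.29 and at 72 h by -1.53 ± 0.25 (limma, SE, adjusted p = 0.000378 and 0.00177). Bnip3, a mitochondrial mitophagy receptor, was lower at 12 h by -0.83 ± 0.17 and at 72 h by -0.67 ± 0.17 (adjusted p = 0.00985 and 0.0328). Ddit4, an inhibitor of the mTOR complex, was higher at 12 h by 0.91 ± 0.19 and at 72 h by 0.99 ± 0.19 (adjusted p = 0.00945 and 0.0055). The list's median log2 fold change was -0.00, -0.42 and 0.01 at 12, 24 and 72 h, beside 0.04 for all genes at 24 h. Pgk1, Aldoa, Pfkfb3 and Slc16a3, the members higher at 2 or more times, are described with the results.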
